A study of Mus musculus with 13 samples.

Results

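The regions described here are the distal H3K27ac regions that were called in every one of 9 melanoma lines of the mouse. H3K27ac, histone H3 acetylated at its lysine 27, is a chromatin mark found at active promoters and at active enhancers, the stretches of DNA away from a gene's start that bind transcription factors and raise transcription from a distance. Each line gave 1 library, whose peaks, the stretches enriched over background, were deposited as 1 list. Overlapping or touching peaks of the 9 lists were joined into 59668 merged regions, and a region was kept when it lay on an autosome, was narrower than 10 kb, overlapped a peak of all 9 lists and had no annotated transcription start site (TSS) within 1 kb. This left 3133 regions, 5.25% of all merged regions, 38.3% of the 8187 regions called in all 9 lists and 7.44% of the 42085 autosomal regions narrower than 10 kb and away from a TSS. The calls chose the regions, so the number, and how strongly they were called, describe the selection and were not tested.

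All lines came from melanomas of mice that carried a melanocyte-driven mutant NRAS transgene (Tyr::NRAS), 1 disrupted copy of Cdkn2a and floxed copies of Cdh1, the gene of the adhesion protein E-cadherin (Cdh1 F/F). Ecad lines had no Cre, and ΔEcad lines also carried Tyr::CreA, which deletes Cdh1 in the melanocyte lineage. The male Ecad lines were Ma_1007 and Ma_1181, the female Ecad lines Ma_1014 and Ma_1039, the male ΔEcad lines Ma_1062 and Ma_1456, and Ma_1057, Ma_1064 and Ma_1069 were female ΔEcad lines. The replicates are thus separate lines, and ages of the mice are not given in the sources used here. Both transgenes are driven by sequence of Tyr, the tyrosinase gene, so reads from a transgene and from the gene itself cannot be told apart wherever the constructs and the gene share sequence.

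The lists differed in length, from 20741 peaks in Ma_1069 to 41663 in Ma_1007, and they do not hold the number of reads obtained per line, for which the study's methods state 1 target common to all libraries. Of 8 melanocyte lineage markers, 7 (Mitf, Sox10, Tyr, Dct, Pmel, Mlana and Pax3) had a promoter peak in all 9 lists and Tyrp1 had one in 6. No keratinocyte, fibroblast, immune or endothelial marker of 6 each had a promoter peak in all 9 lists, each list held at most 1 of each set, and the 6 immune markers had none. Of 6 hepatocyte genes, taken as a tissue that should be absent, Ttr had a promoter peak in all 9 lists and the others had none. The label of melanoma cells therefore matched the promoter calls of the lineage. Among the genes of other tissues Ttr was called in all 9 lists, and Krt10, Pdgfra and Tek had a promoter peak in some lists.

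In melanocytes, MITF is the factor that switches on the pigment genes, and SOX10, PAX3, TFAP2A and LEF1 are known to work with it. Their target genes Tyr, Dct and Tyrp1 encode the enzymes that make melanin, and Pmel and Mlana encode melanosome proteins. Signalling through mutant RAS and the MAPK cascade is known to raise its own inhibitors, the DUSP phosphatases and the SPRY and SPRED proteins, and the ETV factors. Regions are named below by the nearest protein-coding TSS, which is a label of position and not evidence that the region acts on that gene.

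The letters at the summit (the highest point of a peak, as the median over the 9 lists) are shown for 7 regions that the results turn on, 300 bases each on the plus strand of GRCm38 (mm10). Tyr (chr7:87508709-87509008) and Krt80 (chr15:101337316-101337615) are the strongest regions, Dct (chr14:118089263-118089562), Mitf (chr6:97898333-97898632) and Sox5 (chr6:144181087-144181386) stand for the pigment and lineage genes, Dusp6 (chr10:99283591-99283890) for RAS-MAPK feedback, and Fhit (chr14:11154557-11154856) for the regions whose width differed between groups. Capitals mark matches, on either strand, to letters that TEAD factors (GGAATG), SOX factors (ACAATG or AACAAT), MITF (CACATGA, the M-box, or CACGTG, the E-box) and AP-1 (TGANTCA) can bind. Binding was not measured here.
Tyr: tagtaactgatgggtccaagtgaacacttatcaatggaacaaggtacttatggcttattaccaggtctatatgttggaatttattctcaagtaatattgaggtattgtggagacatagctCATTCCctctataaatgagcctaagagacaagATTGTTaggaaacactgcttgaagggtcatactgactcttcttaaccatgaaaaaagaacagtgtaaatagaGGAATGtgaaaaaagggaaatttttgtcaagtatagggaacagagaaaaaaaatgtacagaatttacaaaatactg
Krt80: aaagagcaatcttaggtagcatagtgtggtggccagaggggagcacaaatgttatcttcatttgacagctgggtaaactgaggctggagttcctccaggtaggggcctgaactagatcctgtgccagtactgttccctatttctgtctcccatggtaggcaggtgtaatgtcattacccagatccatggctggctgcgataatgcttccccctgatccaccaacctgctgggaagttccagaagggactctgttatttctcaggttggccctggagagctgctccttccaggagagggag
Dct: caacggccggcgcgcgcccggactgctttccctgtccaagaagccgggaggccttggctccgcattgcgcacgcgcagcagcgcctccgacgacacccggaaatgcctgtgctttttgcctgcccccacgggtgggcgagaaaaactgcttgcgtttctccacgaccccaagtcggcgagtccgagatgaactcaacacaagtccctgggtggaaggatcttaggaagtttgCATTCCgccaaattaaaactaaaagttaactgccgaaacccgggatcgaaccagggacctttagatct
Mitf: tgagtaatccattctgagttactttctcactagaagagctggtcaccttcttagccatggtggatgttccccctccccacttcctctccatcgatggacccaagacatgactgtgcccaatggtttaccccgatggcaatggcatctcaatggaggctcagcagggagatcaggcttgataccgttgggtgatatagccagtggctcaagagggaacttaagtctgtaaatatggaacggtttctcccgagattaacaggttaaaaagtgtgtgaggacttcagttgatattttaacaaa
Sox5: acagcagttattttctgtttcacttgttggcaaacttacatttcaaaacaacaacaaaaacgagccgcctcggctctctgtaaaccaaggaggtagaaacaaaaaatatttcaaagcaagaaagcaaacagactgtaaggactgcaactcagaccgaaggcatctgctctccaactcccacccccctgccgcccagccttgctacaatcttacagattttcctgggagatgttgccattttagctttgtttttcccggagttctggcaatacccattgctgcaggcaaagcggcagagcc
Dusp6: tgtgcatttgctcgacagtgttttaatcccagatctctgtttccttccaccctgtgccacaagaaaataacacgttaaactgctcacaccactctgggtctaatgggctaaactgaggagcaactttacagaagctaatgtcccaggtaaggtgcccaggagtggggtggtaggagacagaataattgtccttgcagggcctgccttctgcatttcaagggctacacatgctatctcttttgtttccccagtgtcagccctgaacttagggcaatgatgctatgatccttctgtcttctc
Fhit: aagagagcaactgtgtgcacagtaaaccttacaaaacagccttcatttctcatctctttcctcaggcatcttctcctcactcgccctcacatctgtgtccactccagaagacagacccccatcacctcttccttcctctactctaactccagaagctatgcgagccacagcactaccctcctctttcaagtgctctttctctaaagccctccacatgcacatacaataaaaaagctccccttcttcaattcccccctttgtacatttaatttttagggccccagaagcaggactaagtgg

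Among these windows the Tyr window held 2 TEAD matches and 1 SOX match, the Dct window held 1 TEAD match, and the other 5 held none of the letters searched. No M-box, E-box or AP-1 match lay in any of the 7. The Tyr window was 34.3% G or C and had no CpG, whereas the Dct window was 58.3% G or C and had 26 CpG. The Dct region lay within 1 kb of a RefSeq tRNA start, so its letters need not be those of a pigment gene enhancer. The absence of a match says only that these letters are not in these 300 bases.

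Most shared distal regions lay within 50 kb of a TSS, and the rule left out any within 1 kb. Their median distance to the nearest TSS of any gene was 11127 bp (quartiles 5043 and 24935 bp), with 24.8% at 1 to 5 kb, 21.8% at 5 to 10 kb and 42.6% at 10 to 50 kb. The distal regions called in 2 to 8 lists had a median of 13027 bp (n = 21942) and those of 1 list 13250 bp (n = 17010). Over 100 kb away were 93 shared regions, 2.97%, beside 4.89% of the regions of 2 to 8 lists and 5.55% of those of 1 list. To a protein-coding TSS the median was 20197 bp, beside 24642 and 27020 bp. All these distances ran from the nearer edge of the merged region. A wider region therefore reaches closer to a TSS, and the part of region width in these differences was not tested. From the summit the median distance of the shared regions was longer, as given below, and it was not computed for the other classes. The summit lay in an intron in 59.1% of the shared regions, between genes in 37.0% and in an exon in 3.86%, beside 56.8%, 39.3% and 3.91% of the single-list regions. Upstream and downstream positions were nearly even, with 47.3% of the shared regions upstream of the nearest protein-coding TSS.

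**Figure D1:**
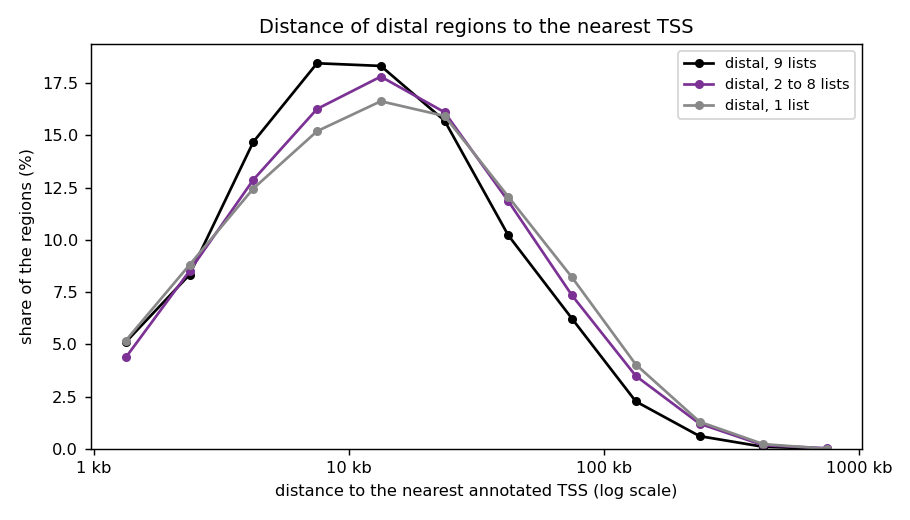
Share of distal regions (percent, vertical axis) by distance to the nearest annotated TSS (horizontal log axis, points at bin centres) for regions called in all 9 lists, in 2 to 8 lists and in 1 list. The curve of the regions called in all 9 lists peaks at shorter distances and falls below the others at the largest ones, with medians of 11127, 13027 and 13250 bp. Distances run from the nearer edge of the merged region.

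The 5 regions farthest from any TSS lay in introns in 4 cases and between genes in 1. The region nearest to Ctnnd2 (chr15:29308364-29314902), the gene of a neuronal catenin, lay 398.5 kb from any TSS, and its percentile ran from 59.0 in Ma_1181 to 99.6 in Ma_1456. The intronic region near Ptprd (chr4:77846464-77850975), a receptor tyrosine phosphatase, lay 360.8 kb from a TSS and was even, from 84.5 in Ma_1007 to 96.0 in Ma_1062. The regions of Lrp1b, Rad51b and Sgcd lay 382.4, 294.9 and 247.1 kb away. At the other limit, the region of Mthfd1l lay 1005 bp from a TSS and was kept, whereas that of Il20rb at 997 bp was not, and the widest region kept, near Akap2, was 9991 bp wide while one near Msi2 was left out at 10016 bp.

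Adding the transcript starts of RefSeq for the same assembly placed 232 of the 3133 regions (7.41%) within 1 kb of a start, beside 4.02% of the distal regions of 2 to 8 lists and 2.83% of those of 1 list. This distance too ran from the region edge, and the part of region width was not tested. Curated RefSeq transcripts accounted for 36 regions (1.15%, beside 0.292% and 0.218% of the other classes in the same order). Genes of tRNA accounted for 25 (0.798%, beside 0.146% and 0.0941%). The Dct region shown above was 1 of these 25, and the region in an intron of Rab27a lay within 1 kb of another RefSeq start. The median of the mean percentile was 77.8 in the 232 regions and 74.1 in the other 2901.

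Strength was measured as the percentile of a region's highest −log10 q, the significance given by the peak caller, among all peaks of the same list. The shared distal regions stood high in every list, with a median percentile between 70.6 in Ma_1069 and 83.5 in Ma_1039. The distal regions called in 2 to 8 lists had medians of 35.8 to 46.8 and those of 1 list 12.3 to 26.2, and neither range reached that of the shared regions. These ranges follow in part from the selection, since a region that is weak in 1 line is the more easily missed there. The shared regions held 8.38% of the peaks in Ma_1007 and 16.9% in Ma_1069. The median stretch covered by peaks within a region was 1623 bp in Ma_1069 and 2633 bp in Ma_1007, and merged regions had a median width of 3567 bp (quartiles 2567 and 4992 bp).

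**Figure D2:**
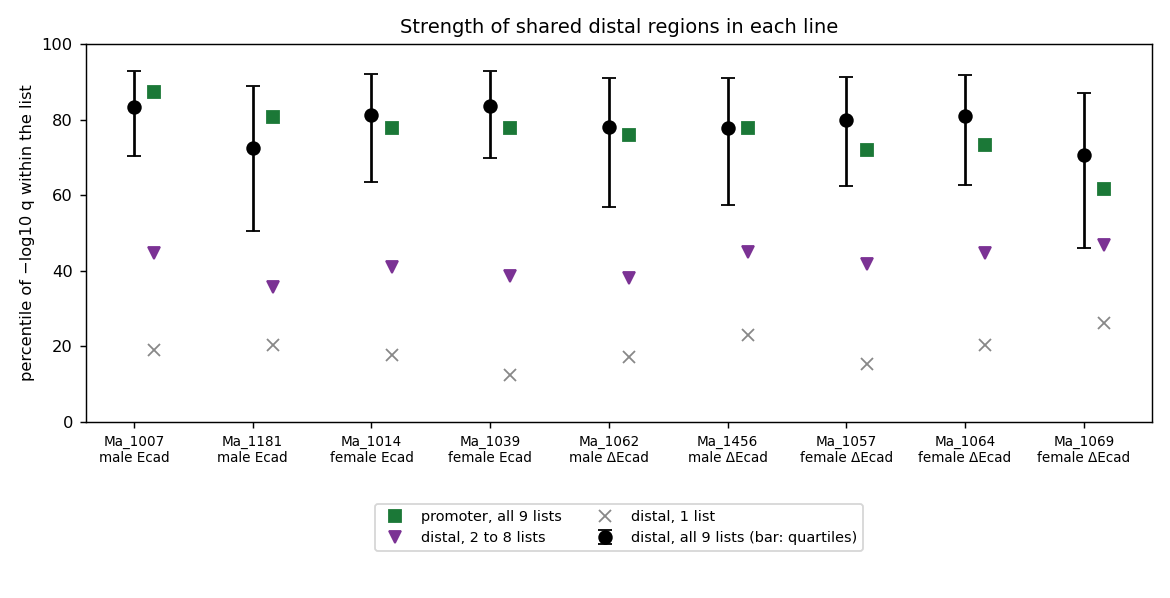
Percentile of the highest −log10 q within each list (vertical axis, 0 to 100) for the 9 lines: black points are medians of the 3133 shared distal regions with bars from the lower to the upper quartile, and coloured symbols are medians of the other classes. The shared distal regions lie at 70.6 to 83.5 in every line, near the shared promoters and above both other distal classes.

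Wider regions were stronger. Spearman's rho between mean percentile and merged width was 0.557 over the 3133 regions, and the 784 narrowest regions, with a median width of 2069 bp, had a median mean percentile of 60.3, against 86.0 for the 782 widest, with a median of 6338 bp. Width and strength share the same peaks, so this is a description of the calls. Distance mattered little by comparison, with a rho of 0.0641 and medians of 72.4 at 1 to 5 kb, 74.4 at 10 to 50 kb and 80.5 in the 93 regions beyond 100 kb. Regions between genes had a median mean percentile of 77.9 and those in introns 72.9.

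The order of the regions was only partly the same from line to line. The SD of a region's percentile over the 9 lists had a median of 16.2 points (quartiles 9.85 and 21.9). In 117 regions every list was above percentile 90, in 1258 (40.2%) every list was above 50, and in 279 at least 1 list was above 90 while another was below 20. Ma_1069 gave the lowest percentile of the 9 in 24.03% of the regions, Ma_1181 in 19.8% and Ma_1456 in 16.0%, and Ma_1039 in 2.36%. Spearman's rho between lists ran from 0.292 (Ma_1456 and Ma_1069) to 0.837 (Ma_1014 and Ma_1039), with a median of 0.595 over the 6 pairs of lines of the same sex and genotype and 0.477 over the other 30. The male pairs were loose, at 0.491 for the Ecad lines and 0.425 for the ΔEcad lines, and the 3 female ΔEcad pairs lay at 0.469, 0.700 and 0.719. Another 1798 distal regions were called in 8 of the 9 lists, and the list that missed them was that of Ma_1069 in 608, of Ma_1456 in 362, of Ma_1181 in 337 and of Ma_1007 in 21.

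The strongest shared distal region was the one upstream of Tyr, which encodes tyrosinase, the rate-limiting enzyme of melanin synthesis. It spanned chr7:87504468-87511545, 10.956 kb upstream of the TSS and between genes. Its percentile was 99.99 in both male Ecad lines, 99.92 and 99.96 in the female Ecad lines, 99.99 and 99.98 in the male ΔEcad lines, and 100 in all 3 female ΔEcad lines. It was thus the top peak of 3 lists and at 99.92 or above in the other 6, and its fold enrichment ran from 126 to 310. Whether the transgenes hold this stretch of Tyr is not given in the sources used here, and their part in its height was not tested.

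The region second in mean percentile lay near Krt80, a keratin gene, at chr15:101331661-101339951, with 99.7 to 99.99 over the lists. It was followed by regions near B4galt5, a galactosyltransferase gene, Vcpkmt, a lysine methyltransferase gene, and Col5a3, a collagen gene, with mean percentiles of 99.8, 99.7 and 99.6. Then came regions of Kidins220, a scaffold of neurotrophin signalling, Inpp5f, an inositol phosphatase gene, Dusp10, a phosphatase gene of the stress MAP kinases, Mitf and Dlgap2, a synaptic scaffold gene, at 99.4 to 99.5. The Mitf region (chr6:97895111-97901236) lay in an intron, 28.6 kb upstream of the nearest Mitf TSS, and its percentile was 99.8 and 99.9 in the male Ecad lines, 99.96 and 99.95 in the female Ecad lines, 99.6 and 99.1 in the male ΔEcad lines, and 98.3, 99.5 and 98.9 in the female ΔEcad lines. The lowest value of any of these 10 regions was 96.95, for Dlgap2 in Ma_1064.

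The 3 most variable regions were high in some lines and near the bottom in others, and neither Ecad and ΔEcad lines nor males and females were separated in them. The region near Cited2 (chr10:17574199-17577695), a transcriptional co-regulator gene, had an SD of 38.0 points, with 92.5 and 44.9 in the male Ecad lines, 11.8 and 1.16 in the female Ecad lines, 38.0 and 14.6 in the male ΔEcad lines, and 91.9, 88.6 and 10.4 in the female ΔEcad lines. The 3 female ΔEcad lines alone ran from 10.4 to 91.9. The regions near Themis and Emid1 had SDs of 36.9 and 36.4 points.

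The nearest genes were more often marked at their promoter than genes in general. A promoter peak in all 9 lists was found at the nearest protein-coding gene of 48.2% of the shared distal regions, beside 35.7% of the distal regions of 2 to 8 lists, 32.5% of those of 1 list and 21.9% of all 20780 autosomal protein-coding genes. Counted once per gene, which is the count to set beside all genes, the shares were 42.5% of the 2169 genes nearest to shared regions, 29.6% of the 7483 nearest to regions of 2 to 8 lists and 28.4% of the 6668 nearest to single-list regions. No list had a promoter peak at the nearest gene of 14.0% of the shared regions (16.6% of the 2169 genes), beside 25.8% for the single-list regions and 45.7% of all genes. The difference from the single-list regions was present at each distance, with 52.0% against 38.7% within 10 kb of a protein-coding TSS and 41.1% against 25.7% beyond 100 kb.

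The regions were the nearest of 2169 genes, and few genes had many. Ptprm, a receptor tyrosine phosphatase that binds between cells, Rere, a nuclear corepressor gene, and Sox5, whose product is known to modulate SOX10 in melanocytes, had 9 each. Gsdmc, a gasdermin gene, and Zfp608, a zinc finger gene, had 8 each, Bcas3, Celf2, Sox6 and Zbtb20 had 7 each, and Actbl2 had 6. The 9 regions of Sox5 were 15.5% of the 58 distal regions of any number of lists nearest to that gene, and lay 20.5 to 125 kb from its TSS, with mean percentiles from 48.6 to 98.4. The 8 regions of Gsdmc lay 128 to 903 kb away, so that the nearest gene is only a label there. Gene length was not taken into account, and no test was made of these counts.

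The shared regions were mostly solitary. Joined at gaps of at most 0.0125 Mb, they formed 2845 clusters, of which 2598 held 1 region (82.9% of the regions), 215 held 2 and 32 held 3 or more, together 105 regions. The largest held 5 regions over 55517 bp near App, the amyloid precursor gene (chr16:85098435-85153951), with mean percentiles of 47.2 to 85.3. Next were clusters of 4 between Agps and Nfe2l2 (chr2:75761688-75804304), Nfe2l2 being the gene of the oxidative stress factor NRF2, near Zfp958 (chr8:4553710-4589026), near Zfp217 (chr2:170152923-170185924) and near Usp6nl (chr2:6356878-6388591). A shared promoter region lay within that distance of 16.0% of the regions, and a shared region of 10 kb or more of 3.29%. Regions in clusters of 3 or more had a median mean percentile of 76.5 and solitary ones 74.2.

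In every gene list, the share of genes nearest to a shared distal region was above that of genes in general. Of 97 genes in 7 lists, 42 (43.3%) were nearest to at least 1, beside 10.4% of all autosomal protein-coding genes. The lists were chosen with earlier results of these data known, so the comparison is a description. Of 17 melanocyte and neural crest factors 10 had a region, 33 regions in all, and of 16 RAS-MAPK feedback genes 10 had one, 23 in all. The pigment and melanosome genes had 6 of 16, the YAP-TEAD genes 6 of 13, the cytoskeleton and adhesion genes 6 of 12, the invasive state genes 2 of 11 and the AP-1 genes 2 of 12. A shared distal region within 50 kb of a TSS was found for 31 of the 97 genes, among them 4 of the 17 factors and 8 of the 16 feedback genes. That count was not made for all protein-coding genes.

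Among the factors, Sox5 had 9 regions, Mitf 6, and Zeb2, a repressor gene of the melanocyte lineage, 5. The strongest Sox5 region (chr6:144178440-144183549) lay in an intron and had percentiles of 99.7 and 96.9 in the male Ecad lines, 95.1 and 98.3 in the female Ecad lines, 98.4 and 99.4 in the male ΔEcad lines, and 99.1, 99.6 and 98.6 in the female ΔEcad lines. The strongest Zeb2 region (chr2:46650016-46659410) had 96.8 to 99.4 but lay 1533 kb from the gene's TSS. The strongest of 3 Sox9 regions, 223.8 kb from that TSS, was weaker, from 46.9 in Ma_1062 to 92.5 in Ma_1007. Pax3, Tfap2a, Kit and Ednrb had 2 each, and Lef1 and Foxd3 had 1 each. Of these genes, only Tfap2a had a region within 50 kb of its TSS. Sox10 was the nearest gene of no shared distal region and of no shared region of 10 kb or more, although its promoter was marked in all 9 lists. Each region is counted under its single nearest gene, so a shared region over that promoter could carry the name of a neighbour. Snai2, Tfap2b, Tfeb, Irf4 and Erbb3 were the nearest gene of neither as well, and Irf4 had no promoter peak in any list. Tfe3, and Gpr143, L1cam and Flna of the other lists, are X-linked and could not have a shared distal region by the rule.

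Among the pigment genes, Dct, the gene of dopachrome tautomerase, and Myo5a, the motor that moves melanosomes, had 3 regions each, and Tyr, Slc45a2, Rab27a and Mreg had 1 each. The strongest Dct region lay 36.0 kb upstream at chr14:118088227-118090677, within 1 kb of a RefSeq tRNA start. It had 84.6 and 96.0 in the male Ecad lines, 88.6 and 88.7 in the female Ecad lines, 87.2 and 82.0 in the male ΔEcad lines, and 77.5, 80.4 and 62.9 in the female ΔEcad lines. The female ΔEcad lines were the 3 lowest of the 9, and the region did not pass a test between the groups. The intronic region near Rab27a (chr9:73062192-73068239), a gene needed to tie melanosomes to actin, ran from 79.6 to 96.8. The Mreg region varied most among the pigment genes, from 3.99 in Ma_1014 to 95.4 in Ma_1007, and lay 192 kb from that gene's TSS. Mlana, Slc24a5, Gpnmb and Rab38 had no region under 10 kb but a shared region of 10 kb or more.

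Among the feedback genes, Etv1, an ETS factor gene, had 6 regions, Dusp4 had 4 and Ier3, an immediate early gene, had 3. The strongest Dusp4 region (chr8:34541259-34548184) had percentiles of 95.1 to 99.8 but lay 259 kb from the TSS. The Dusp6 region (chr10:99282593-99286385) lay 17.0 kb downstream of the TSS of the ERK phosphatase gene, at 76.7 in Ma_1007 to 97.3 in Ma_1062. The strongest Ier3 region lay 4.89 kb upstream and was even over the lines, at 91.4 to 96.9. Ccnd1, the cyclin D1 gene, and Myc were the nearest gene of no shared distal region but of shared regions of 10 kb or more, and Spry1, Spred1, Etv4 and Egr1 of neither.

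Among the other lists, Tead1, a partner of YAP, had 6 regions, all within 50 kb of its TSS, and the strongest (chr7:112694362-112701717) ran from 74.0 in Ma_1456 to 99.2 in Ma_1007. Vcl, the vinculin gene, had 5, with its strongest at 69.6 to 99.4. The single regions of Jun and Atf3 ran from 41.5 to 95.9 and from 48.5 to 97.9. Of the invasive state genes, Gfra2 and Tcf4 had regions, whereas Axl, Wnt5a and Ngfr had none.

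The letters of the shared distal regions were those of distal rather than promoter chromatin. In 500 bp around the summit the median share of G and C was 45.2% and the ratio of observed to expected CpG 0.198, beside 56.6% and 0.708 at the 4459 promoter regions called in all 9 lists and 43.8% and 0.164 at the single-list distal regions. The AP-1 letters TGANTCA were found in 18.3% of the shared distal regions, 9.22% of the shared promoters, 21.8% of the distal regions of 2 to 8 lists and 21.1% of those of 1 list. The TEAD letters GGAATG stood at 24.03%, 19.7%, 26.0% and 25.8%, and the SOX letters ACAATG at 24.99%, 14.4%, 29.0% and 28.4%. The M-box CACATGA stood at 11.4%, 4.78%, 12.47% and 11.99%, and the second SOX letters AACAAT at 25.1%, 13.8%, 28.4% and 28.7%. With their letters in reverse order the shares in the shared distal regions and the shared promoters were 14.1% and 7.63% for AP-1, 14.7% and 14.2% for TEAD, 17.97% and 9.42% for ACAATG, 25.6% and 12.6% for AACAAT, and 5.27% and 3.16% for the M-box. AP-1, SOX, TEAD and M-box letters were thus more frequent than at promoters, and so were their reversed letters. In 500 bp they were less frequent than in distal regions called in fewer lists, but for the M-box this order turned in 1000 bp, with 24.2% in the shared regions, 23.1% in those of 2 to 8 lists and 22.6% in those of 1 list. Of 14 motifs searched, 7 were more frequent in the shared than in the single-list distal regions, and the G- and C-rich ETS letters CCGGAA (7.69% against 4.87%) and SP/KLF letters GGGCGG (8.27% against 5.14%) had the widest ratios. The shared regions also had the higher share of G and C, and its part in these differences was not tested. The letters ACAATG and AACAAT overlap where AACAATG occurs.

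Within the shared distal regions, some motifs were more frequent in the strongest regions and others less, and these differences were not tested. Between the 784 regions of lowest and the 783 of highest mean percentile, the AP-1 share was 17.9% and 19.03%, the TEAD share 21.2% and 25.5%, the M-box share 10.6% and 11.1%, and the SOX share (ACAATG) 26.1% and 23.0%.

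The balance of distal and promoter acetylation differed between the lines. The median fold enrichment over background at the shared distal regions was 17.4 in Ma_1007 and 17.3 in Ma_1181, 19.4 in Ma_1014 and 18.5 in Ma_1039, 15.6 in Ma_1062 and 14.5 in Ma_1456, and 15.5, 15.3 and 10.9 in Ma_1057, Ma_1064 and Ma_1069. At the 4459 shared promoter regions it was 19.5 and 22.4, 15.3 and 14.0, 12.6 and 12.2, and 8.64, 8.78 and 6.61 in the same order. The ratio of distal to promoter was therefore 0.832 ± 0.0845 (SD, n = 2) in male Ecad, 1.29 ± 0.0335 (n = 2) in female Ecad, 1.21 ± 0.0304 (n = 2) in male ΔEcad and 1.73 ± 0.0736 (n = 3) in female ΔEcad lines. The male Ecad lines were the only ones below 1 and the 3 female ΔEcad lines, at 1.65 to 1.80, the highest, and neither group overlapped another. The percentiles gave the same order for the male Ecad and female ΔEcad lines, with a difference of distal minus promoter medians of −3.94 and −8.16 points in male Ecad and 7.62 to 8.98 points in female ΔEcad lines. Because this is a score over regions chosen by their calls, no test was made, and fold enrichment also depends on the depth obtained and on the input used, neither of which is given in the sources used here for each line.

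**Figure D3:**
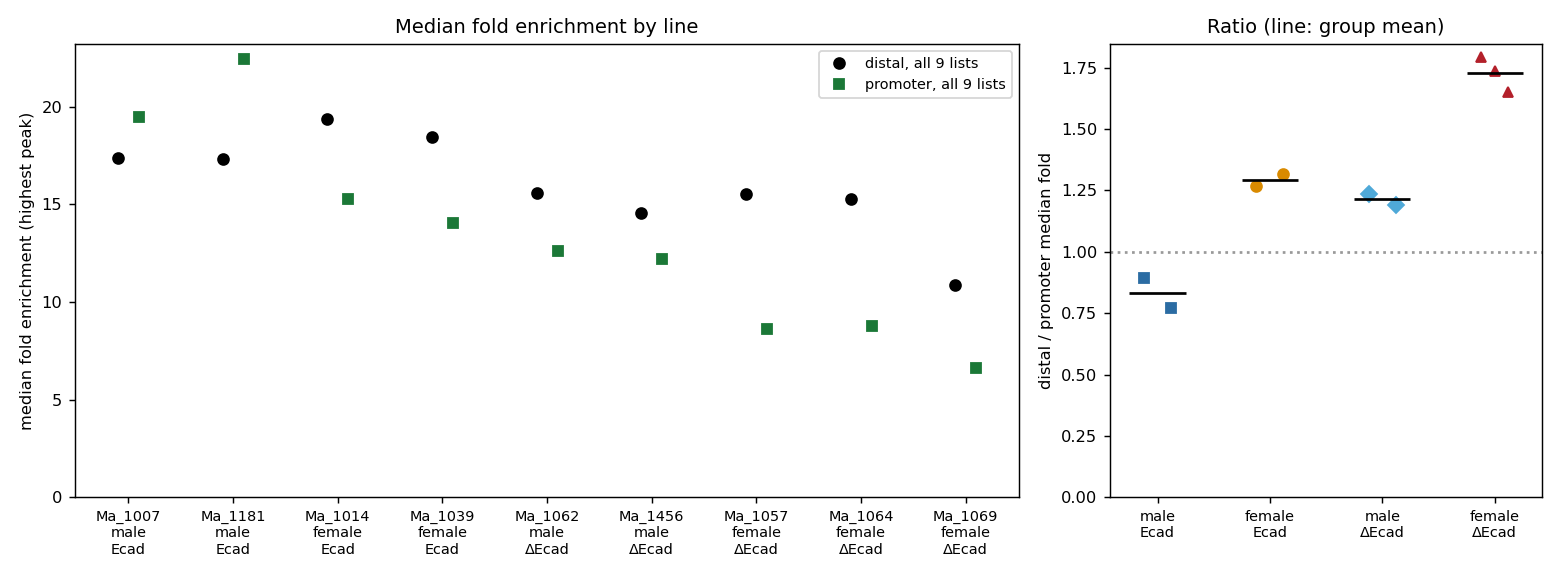
Left, median fold enrichment of the highest peak (vertical axis) in each line at the 3133 shared distal regions (circles) and the 4459 shared promoter regions (squares). Right, their ratio by group with the group mean as a bar: the 2 male Ecad lines lie below 1 and the 3 female ΔEcad lines at 1.65 to 1.80.

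Whole chromosomes moved together in single lines. For each line and chromosome, the median of the strength score (each region's rank among the 8187 regions called in all 9 lists, turned into a normal score, minus its mean over the lines) was compared with that over all shared distal regions. On chromosome 19 of Ma_1014 the 80 shared distal regions were shifted by −0.778, with a median percentile of 56.5 against 81.2 over all chromosomes. On chromosome 16 the 104 regions were shifted by 0.778 in Ma_1064 and by −0.664 in Ma_1062. Chromosome 12 was shifted by 0.646 in Ma_1064 and chromosome 11 by −0.580 in Ma_1062. The shared promoter regions of the same chromosomes, which are other sites, were shifted by −0.624, 0.664, −0.588, 0.750 and −0.462 in these 5 cases. Over the 171 pairs of chromosome and line Pearson's r between distal and promoter shifts was 0.923 and Spearman's rho 0.900, and all 11 shifts of more than 0.4 had the same sign in both classes. The values of one line share a library, and the number of copies of each chromosome was not measured here.

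**Figure D4:**
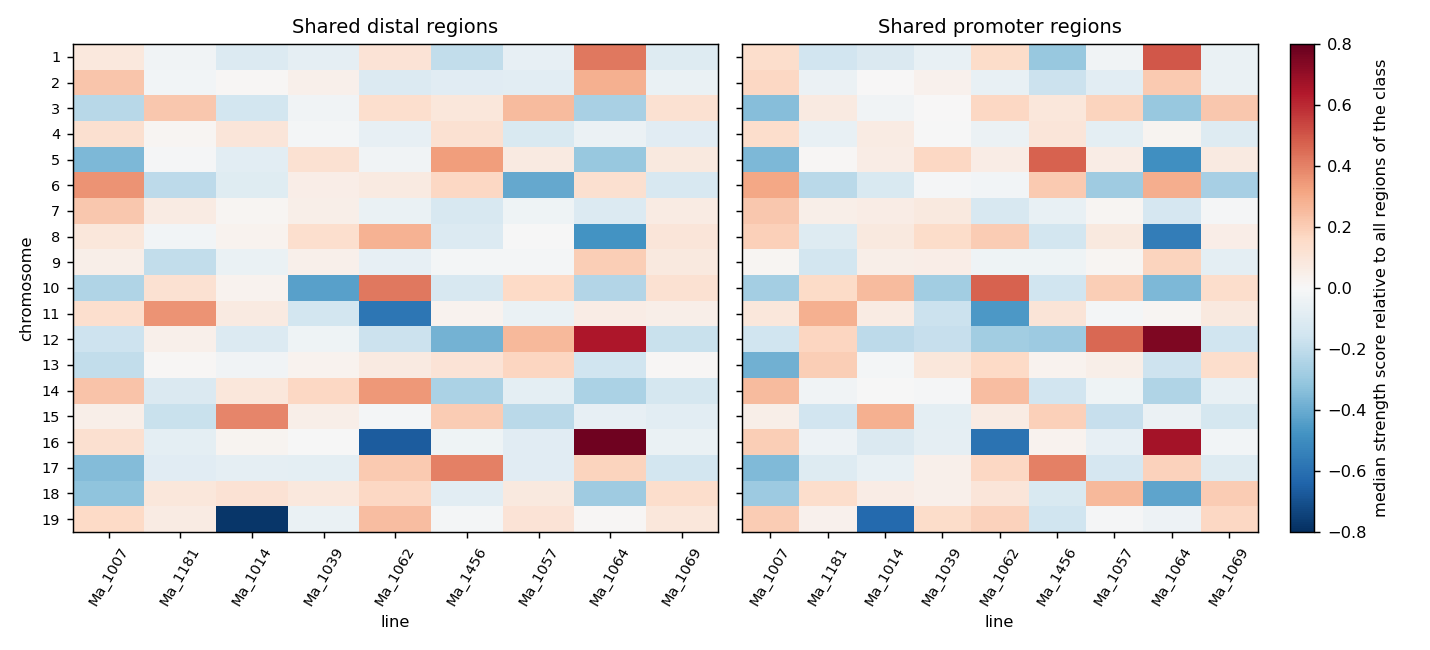
Median strength score of the regions of each autosome (rows) in each line (columns), relative to all regions of the class, for shared distal regions (left) and shared promoter regions (right), with red for higher and blue for lower. Chromosome 19 in Ma_1014, chromosomes 11 and 16 in Ma_1062 and chromosomes 12 and 16 in Ma_1064 stand out in both panels.

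The design asks whether acetylation depends on Cdh1 loss, on sex, or on both. Strength scores and acetylated width (log2 of the bases covered by peaks, centred on the median of each list) were compared with limma over all 8187 regions called in all 9 lists, with Benjamini-Hochberg adjustment and a threshold of 0.05 on the adjusted p. A score difference of 1 is 1 SD of the order of the regions within a list. Being called does not fix these orders, but it leaves out any region that a line lost.

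Over both sexes, no shared distal region passed for strength between ΔEcad and Ecad lines (0% of all regions tested, smallest adjusted p = 0.167), although 516 of the 3133 had an unadjusted p under 0.05 (356 higher and 160 lower in ΔEcad lines), beside 1155 of all 8187 regions tested (601 higher and 554 lower). The region upstream of Wnt7b (chr15:85609909-85614868), a Wnt ligand gene, had percentiles of 98.9, 92.6, 92.8 and 87.2 in the Ecad lines and 57.6, 47.8, 47.5, 32.2 and 46.9 in the ΔEcad lines, which did not overlap, with a score difference of −1.87 ± 0.298 (SE, adjusted p = 0.176 by limma). The intronic region near Tmem232 (chr17:65495211-65498164) ran the other way, with 35.5, 38.2, 58.3 and 57.2 in the Ecad lines and 88.4, 94.8, 90.5, 85.4 and 87.5 in the ΔEcad lines, again without overlap (difference 2.10 ± 0.285, adjusted p = 0.167). Neither passed the correction. With scores taken from fold enrichment instead of −log10 q, 198 shared distal regions passed, 166 higher and 32 lower in ΔEcad lines. These were 6.32%, 5.30% and 1.02% of the 3133, beside 8.68% of all regions tested, 3.22% higher and 5.46% lower.

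For width, 1 shared distal region passed over both sexes, the only 1 of all 8187 tested (0.0122%, all lower in ΔEcad, 0% higher). It lay in an intron at chr14:11152096-11156135, nearest to Fhit, a diadenosine triphosphate hydrolase gene at a common fragile site, 5.90 kb from a TSS. Peaks covered 3597 and 2793 bp of it in the male Ecad lines, 3603 and 3448 bp in the female Ecad lines, 1120 and 1053 bp in the male ΔEcad lines, and 395, 420 and 469 bp in the female ΔEcad lines. All 5 ΔEcad lines lay below all 4 Ecad lines, and the female ΔEcad lines were the narrowest, with a difference of −2.03 ± 0.177 on the log2 scale (adjusted p = 0.0230 by limma). The adjusted p stayed under the threshold without Ma_1062, Ma_1064 or Ma_1069 (0.0244 to 0.0489) and was 0.0639 to 0.339 without any 1 of the other 6 lines. It was 0.0904, above the threshold, when width was taken from the first to the last peak base of the region.

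In females, 22 shared distal regions passed for strength between ΔEcad and Ecad lines, 18 higher and 4 lower (0.702% of the 3133), beside 0.525% of all regions tested (0.452% higher and 0.0733% lower). The share was thus near the background. Unadjusted, 359 were higher and 307 lower, beside 744 and 706 of all regions tested. The number called was 0 without any 1 of the 5 female lines, 24 without a male Ecad line and 78 without a male ΔEcad line, and was 0 with the logit of the percentile and 191 (146 higher) with fold enrichment, 6.10% and 4.66% of the 3133 beside 7.07% and 3.54% of all regions tested. The regions with the smallest adjusted p among those higher in ΔEcad lay near Zfp704, Atxn7l1, Fyn, Kif13a and Mymx, and the 4 lower ones near Adamts9, Adgrv1, Lzic and Tram1.

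Zfp704 is a zinc finger gene. Its intronic region (chr3:9519363-9525671) had percentiles of 27.6 and 42.4 in the female Ecad lines and 92.2, 96.0 and 89.5 in the female ΔEcad lines, while the male lines lay at 85.1 and 91.6 (Ecad) and 69.9 and 74.6 (ΔEcad). The groups of females did not overlap, and the score difference was 2.67 ± 0.360 (adjusted p = 0.0326 by limma). Fyn encodes a kinase of the SRC family that acts at cell junctions, and its region (chr10:39374879-39377297) had 8.03 and 0.786 in the female Ecad lines against 87.2, 64.7 and 86.8 in the female ΔEcad lines, with a difference of 3.26 ± 0.464. Kif13a encodes a kinesin that carries cargo to melanosomes, and its region (chr13:46778315-46782961) had 14.0 and 19.3 against 95.3, 79.3 and 84.6, with a difference of 2.91 ± 0.430. In both of these regions the 4 male lines also lay above the female Ecad lines, at 35.7 to 69.0 for Fyn and at 74.4 to 93.4 for Kif13a.

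Atxn7l1 is a paralogue of the ataxin-7 gene, and its region (chr12:33234531-33237843) had 5.92 and 42.0 in the female Ecad lines against 99.3, 99.7 and 96.7 (difference 4.09 ± 0.572). It lies on chromosome 12, which held 5.27% of the shared distal regions and 4 of the 18 called higher. As a whole, that chromosome was shifted by 0.260 in Ma_1057, 0.646 in Ma_1064 and −0.176 in Ma_1069. In the female Ecad lines Ma_1014 and Ma_1039 its shifts were −0.109 and −0.0367. The region near Mymx (chr17:45606188-45608674), a gene of muscle cell fusion, had 54.6 and 59.9 against 96.2, 97.2 and 96.4 (difference 2.34 ± 0.357). With each list centred per chromosome, an alternative added after the data were seen, 19 of the 22 regions were called again, among 38 calls.

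Adamts9 encodes a secreted metalloprotease. Its region (chr6:93064570-93067560), 121 kb upstream of the TSS and in an intron, had percentiles of 93.0 and 95.3 in the female Ecad lines and 38.1, 40.1 and 18.4 in the female ΔEcad lines, with a difference of −2.26 ± 0.308 (adjusted p = 0.0326 by limma). In males the order was turned, with 64.7 and 44.6 in the Ecad and 89.9 and 89.7 in the ΔEcad lines. The difference between the effects in females and in males was −4.10 ± 0.457 (adjusted p = 0.0160 by limma), and this was the only 1 of the 3133 regions to pass that test, although the adjusted p was 0.0593 to 0.195 without any 1 line but the male ΔEcad lines, beside 0.0366% of all regions tested (0.0244% higher, 0.0122% lower). The region near Adgrv1 (chr13:81219019-81225332), an adhesion receptor gene, had 99.7 and 99.8 in the female Ecad lines and 71.8, 83.3 and 52.4 in the female ΔEcad lines, while the 4 male lines lay between 92.8 and 99.4. The regions near Lzic and Tram1 differed by −2.20 ± 0.378 and −2.46 ± 0.433.

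**Figure D5:**
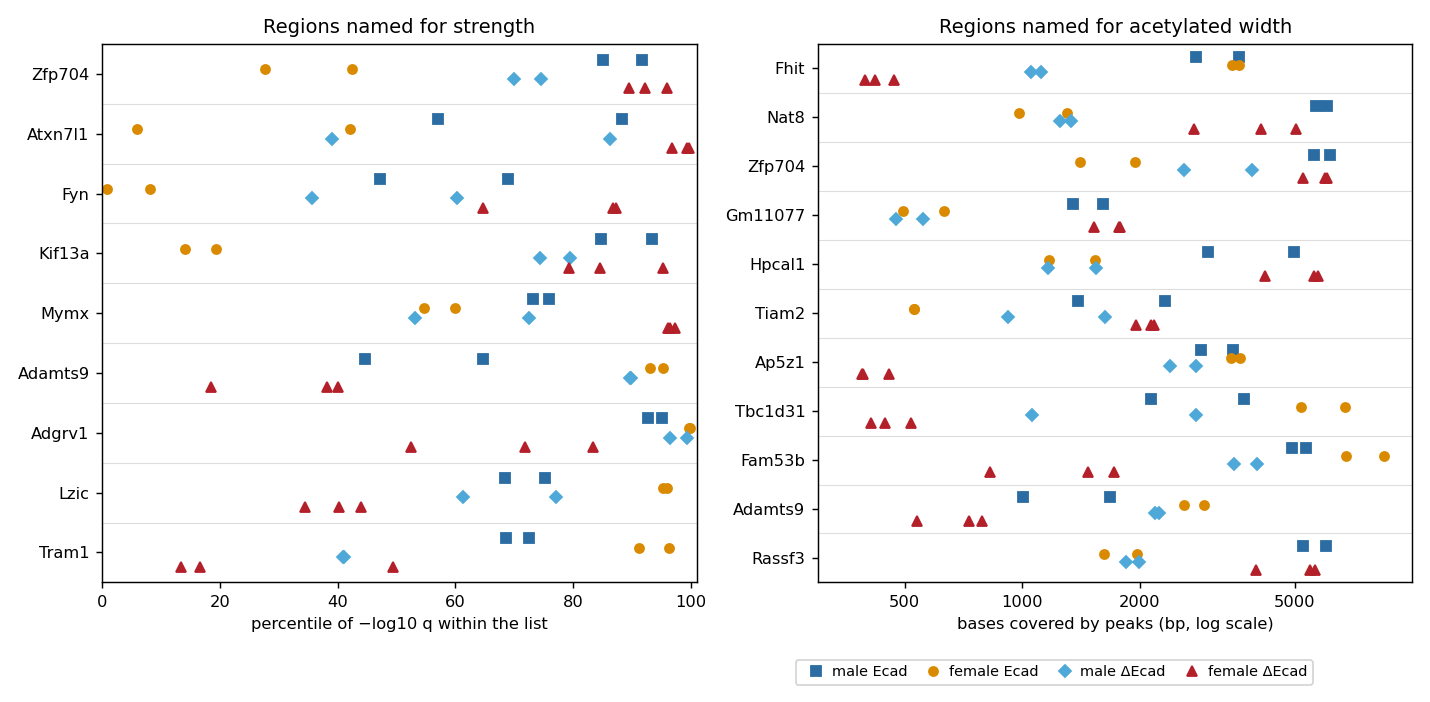
Values in each line for the regions named from the tests that passed, by nearest gene (rows): left, percentile of the highest −log10 q within the list, and right, bases covered by peaks in bp on a log axis, with 1 symbol per line and 1 colour and shape per group. For Fyn and Kif13a the 2 female Ecad lines lie below all other lines, and for Nat8, Gm11077, Hpcal1 and Rassf3 the male Ecad and female ΔEcad lines lie together at larger widths.

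Width gave 33 called shared distal regions in females, 20 wider and 13 narrower in ΔEcad lines, 1.05% of the 3133 beside 1.09% of all regions tested (0.537% wider and 0.55% narrower). The share was that of the background. The number called was 0 without Ma_1014, Ma_1039 or Ma_1057, 14 without Ma_1069 and 56 without a male ΔEcad line. Of the 22 regions called for strength 11 (50% of these, 33.3% of the 33) were also called for width, and both readouts rest on the same peaks. The wider regions with the smallest adjusted p lay near Nat8, Zfp704, Gm11077, Hpcal1 and Tiam2, and the narrower ones near Fhit, Ap5z1, Tbc1d31, Fam53b and Adamts9. In the region near Ap5z1 (chr5:142439127-142442926), a gene of an endosomal adaptor complex, peaks covered 3434 and 3626 bp in the female Ecad lines and 455, 391 and 388 bp in the female ΔEcad lines, while the male lines lay between 2395 and 3467 bp (difference −2.69 ± 0.261 on the log2 scale, adjusted p = 0.0128 by limma). The Tbc1d31 region showed the steepest loss, from 6706 and 5183 bp to 518, 410 and 446 bp. Tiam2 encodes an activator of the small GTPase RAC, and peaks covered 529 and 528 bp of its region in the female Ecad lines against 2172, 1956 and 2139 bp in the female ΔEcad lines.

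In 4 shared distal regions the effect of ΔEcad on width differed between females and males, and in all 4 the effect was higher in females than in males (beside 0.0977% of all regions tested, 0.0611% higher and 0.0366% lower). The Nat8 region (chr6:85836768-85842852), near an acetyltransferase gene, was covered over 6050 and 5667 bp in the male Ecad lines, 982 and 1300 bp in the female Ecad lines, 1249 and 1332 bp in the male ΔEcad lines, and 4085, 5028 and 2754 bp in the female ΔEcad lines. The difference of effects was 4.24 ± 0.381 on the log2 scale (adjusted p = 0.0143 by limma). The Hpcal1 region (chr12:17745400-17751256), near a calcium sensor gene, had 4959 and 2990, 1175 and 1538, 1162 and 1545, and 5726, 4182 and 5592 bp in the same order (3.74 ± 0.444). The Rassf3 region (chr10:121425229-121431427), near a gene of the RAS association family, and that near Gm11077 (chr6:140933427-140935265) had differences of 3.31 ± 0.413 and 3.40 ± 0.367. In all 4 the male Ecad and female ΔEcad lines were wide and the other lines narrow, without overlap. The number called was 0 without Ma_1007, Ma_1014, Ma_1039 or Ma_1057 and 16 without Ma_1062.

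The remaining comparisons gave no call among the shared distal regions. For ΔEcad against Ecad in males limma called 0 for strength and 0 for width (0% of all regions tested in both, smallest adjusted p = 0.168 and 0.210), with 445 and 299 at an unadjusted p under 0.05, beside 992 and 593 of all regions tested. For female against male lines it called 0 for both readouts (0%, smallest adjusted p = 0.0998 and 0.110), with 414 and 309 unadjusted, of which 350 and 224 were higher in females. Of all regions tested, 976 and 935 were under that unadjusted p, 499 and 331 of them higher in females. With fold enrichment 60 regions passed in males (50 higher in ΔEcad), 1.92% and 1.60% of the 3133 beside 2.26% and 0.831% of all regions tested. Between the sexes 72 passed (71 higher in females), 2.30% and 2.27% beside 2.92% and 1.17%. The region upstream of Lamb1 (chr12:31309747-31311632), a laminin gene, came nearest, with percentiles of 28.2 and 10.9 in the male Ecad, 4.17 and 28.8 in the male ΔEcad, 83.2 and 72.8 in the female Ecad and 91.2, 80.8 and 81.7 in the female ΔEcad lines. All 5 female lines lay above all 4 male lines (difference 2.42 ± 0.309, adjusted p = 0.0998). Peaks covered 323 to 682 bp of it in males and 1439 to 1784 bp in females (2.10 ± 0.225 on the log2 scale, adjusted p = 0.110). With 2 or 3 lines in a group, a missed threshold does not show that the lines were alike.

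Over the 3133 regions the median score difference between ΔEcad and Ecad lines was 0.113, beside −0.0245 over all 8187, and that between females and males was 0.209, beside −0.0403. In males the median ΔEcad difference was 0.178 and in females 0.0139. For width the medians of the 2 first comparisons were −0.0116 and 0.106 beside −0.0212 and −0.0383.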

How the data were processed

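H3K27ac ChIP-seq was performed in 9 mouse melanoma lines. The other 4 libraries of the 13 were inputs, each labelled with a different group of sex and genotype, and were not analysed here. The authors aligned paired-end reads to GRCm38 (mm10). The submitters' processing notes name Bowtie2 2.4.5, MACS2 2.2.7.1 and deepTools 3.5.1.0.0, and peak caller settings and the control used are not given in the sources used here. If the lines of a group shared that group's input as control, control and group cannot be told apart in the comparisons between groups. The deposited lists give each peak a fold enrichment over background (a ratio), a −log10 p, a −log10 q and a display score, the last and the −log10 p not being used. Lists were called per line, so lines are the replicates, and the depth obtained per line is not held in them.

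Peaks were joined across lists, and TSSs were taken from GENCODE M21 (55450 genes). Percentiles, distances, clusters (gaps of at most 0.0125 Mb), composition and motifs (500 bp around the median summit) were computed in Python 3.11.15 with numpy 2.4.6, pandas 2.3.3 and scipy 1.17.1. Promoter peaks of a gene lie within 1 kb of its TSS. Strength scores and widths were fitted with limma 3.58.1 (R 4.3.3) on 4 groups of sex and genotype, with 5 contrasts and Benjamini-Hochberg adjustment over 8187 regions, and the code was tested on simulated data.

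Named were the 10 strongest regions, the 5 largest clusters, the 10 genes with most regions, up to 4 genes per list with their strongest region, up to 5 regions per contrast and direction (3 where none passed, of which a selection is printed), the 3 least and 3 most variable, the 5 farthest and those at the limits. Members, lists and motifs were chosen with earlier results of these data known. Alternatives covered the TSS distance, annotation, width limit, peaks used, gap, score, regions tested, centring, window and each line left out. Centring per chromosome and adding RefSeq starts were chosen after seeing the data. Sequences are those of the GRCm38.p6 assembly.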

Additional observations from a re-analysis of the deposited data

Results flagged for a closer look

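Dixon's test for 1 distant value was applied to 17 values in 68 groups of 4 or 5 lines, pooled over sex or genotype, and 9 passed its 95% limit. Its nominal rate of about 1 in 20 is no guide here. Each line entered both a group by sex and a group by genotype, and percentiles of the strongest regions have little room upwards. Of the 9 flags, 3 concern whole lists. The median percentile of the shared distal regions was lowest among female lines in Ma_1069 (70.6, next 79.9, gap over range 0.717). Their median fold enrichment was lowest among ΔEcad lines in the same line (10.9, next 14.5, 0.779). Their median covered length was largest among male lines in Ma_1007 (2633 bp, next 2062 bp, 0.887). Ma_1069 had the shortest list and Ma_1007 the longest, and the part of list length was not tested.

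The other 6 concern single regions near the top of every list, where small differences in percentile are few ranks. The B4galt5 region was lowest in Ma_1062 among ΔEcad lines (99.07, 0.806) and among male lines (0.846). The Kidins220 region was lowest in Ma_1007 among Ecad lines (98.1, next 99.7, 0.849), and the Inpp5f region in Ma_1069 among ΔEcad lines (98.4, next 99.4, 0.720). The Dlgap2 region was lowest in Ma_1064 among ΔEcad lines (96.95, next 99.45, 0.888) and among female lines (0.877).

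The effect of ΔEcad differed between females and males by limma's test of the difference, adjusted over all regions tested, in the Adamts9 region for strength (−4.10, adjusted p = 0.0160), and in the Nat8 (4.24, 0.0143), Gm11077 (3.40, 0.0279), Hpcal1 (3.74, 0.0367) and Rassf3 (3.31, 0.0411) regions for width.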

How the results depend on the processing

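Of the summary values recomputed with all lines kept, 32 stayed within their limits and 23 moved. The number of shared distal regions was 437 when peaks had to cover at least 50% of a region in every list, and lay between 2291 and 3530 under the other definitions and at 3179 to 3754 without 1 line. The median distance to a TSS was 20197 bp with protein-coding TSSs only and 13264 bp from the summit. Clusters of at least 3 regions numbered 8 at gaps of 5 kb and 62 at 25 kb, in place of 32.

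For strength, fold enrichment in place of −log10 q gave 198 regions over both sexes, 72 between the sexes, 191 in females, 60 in males and 29 for the difference between the sexes, in place of 0, 0, 22, 0 and 1. In females the logit of the percentile gave 0, the mean of the peaks 14, distal regions alone 44, the upper 50% by rank 6 and centring per chromosome 38. For the difference between the sexes these settings gave 0 (logit), 3 (distal), 0 (upper 50%) and 10 (per chromosome). Without 1 line the counts ran from 0 to 1 between the sexes, 0 to 78 in females and 0 to 26 for the difference, and were 0 throughout in males and over both sexes.

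For width, uncentred values gave 18 regions over both sexes (17 narrower in ΔEcad) and 172 in females (153 narrower), in place of 1 and 33 (13 narrower), and the first-to-last span gave 1 between the sexes and 13 for the difference in place of 0 and 4. Without 1 line the counts ran from 0 to 2 over both sexes, 0 to 1 between the sexes, 0 to 56 in females, 0 to 2 in males and 0 to 16 for the difference. Among the named regions that had passed, no difference turned its direction, and the other named regions were not followed here. Those that passed had been picked for their differences, so a kept direction says little. The cause of the changes in the counts was not tested. Fits without 1 line assume that a lone line varies like the others. The count of motifs more frequent in shared than in single-list regions was 7 to 9 over the windows tried. The M-box, RUNX, TCF/LEF, CRE and nuclear receptor letters changed side between windows, the M-box from 11.4% against 11.99% in 500 bp to 24.2% against 22.6% in 1000 bp.

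No paired analysis was possible because the lines carry no replicate numbers in the labels. The depth obtained per line is not held in the lists, and with 2 or 3 lines in a group, p-values rest on few lines.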
